A study of Saccharomyces cerevisiae with 112 samples.

Results

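PEP4 (YPL154C), PRB1 (YEL060C), PRC1 (YMR297W), CPS1 (YJL172W) and LAP4 (YKL103C, called APE1 in the R64 annotation) encode the proteases of the budding yeast vacuole described here. They were taken by systematic name, not by their values, and are 5 of the 6319 genes in the deposited table. All 5 passed the filter on low values, as did 5567 genes in all. Their coding sequences are 1218, 1908, 1599, 1731 and 1545 bases long in that order.

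The vacuole is the lysosome of yeast, the acidic compartment in which proteins brought in by autophagy and endocytosis are broken down, and its proteases are made as inactive precursors that are cut to their active form once they have arrived. PEP4 encodes proteinase A, an aspartyl protease that starts this activation, and PRB1 encodes proteinase B, a subtilisin-like serine protease that completes much of it. PRC1 encodes carboxypeptidase Y, the serine carboxypeptidase that the receptor Vps10 sorts to the vacuole, CPS1 encodes carboxypeptidase S, a membrane-bound metallopeptidase that enters through multivesicular bodies, and LAP4 encodes aminopeptidase I, which reaches the vacuole from the cytosol by the cytoplasm-to-vacuole pathway, a selective form of autophagy. The system is best known for recycling protein when nutrients run out.

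The study followed polyadenylated RNA in 8 strains as cells left starvation, with a design that asks how the silencing protein Sir3 and its partners bear on gene expression. Cells were grown for 72 h at 30 °C until growth stopped, released into fresh medium and frozen at 5 min, 30 min, 90 min, 1 doubling and 2 doublings, beside a midlog sample taken before the arrest and a sample from the starved culture. Each strain had 2 libraries at each of the 7 times, numbered here 1 and 2 (2 is the one whose title says replicate). Sir2D and Sir4D came from a library of KanR deletions (MATa, ura3, leu2, his3Δ1, met15), and Sir3D was the S288C strain MRL5.1 (MATa, ura3, leu2, his3, met15) with sir3::KANR. Sir3_3xT7 and Sir3_3xHA carried a loxP-flanked switch cassette of both tags at the end of SIR3 in the wt1 background, isolated after (3xT7) or before (3xHA) the estradiol-driven switch, and the labels call both hypomorphs. oeSir3 was the W303 strain THC70, which has lost its own SIR3 (sir3∆::HIS3) and carries Sir3HA under a GAL10P promoter at ura3-1. It is MATa, with HMLa and HMRa, mat∆::TRP1, hmr::rHMRa and hml∆::kanMX, and further has ade2-1 and can1-100, then his3-11,15 and a leu2 allele, besides trp1-1, with bar1∆::hisG and lys2∆. Its label names the promoter both as GAL10P and as GAL1. oeSir3 was grown, starved and released in galactose medium (YPGal), whereas the other 7 strains had glucose medium (YPD). The wild types were wt1, the S288C strain NKI12318 (MATa; his3d200, leu2d0 and lys2d0, then met15d0, trp1d63 and ura3d0; bar1::HisG, HIS3 and the Cre-EBD78 recombinase under the GPD promoter), and wt2, the strain JOY1 (MATa; ura3D and leu2D, his3D and met15D, bar1D:HIS5), whose parent was BY4741. Each strain is 1 isolate, so a difference between strains is also a difference between isolates.

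The targeted genes followed the labels: SIR2 had 0 reads in all 14 Sir2D libraries, SIR3 in all 14 of Sir3D and SIR4 in all 14 of Sir4D. SIR3 had a median of 668.5 reads over the 14 oeSir3 libraries, against 15 reads in wt1 and 15 in wt2. Depth, as the reads over a typical base of the median tested gene, ran from 5 to 144 reads a library with a median of 65. In 6 of the 16 series (replicate 1 of Sir2D, Sir3D, Sir3_3xT7, Sir3_3xHA, wt1 and wt2) each library had its own value for no coverage. These are called separately processed here. In the other 10, called jointly processed, libraries shared a value, which was not the same in all series (-2.61 and -2.92 in those of oeSir3). This split is called the processing batch, and the labels name no such batch. The separately processed series were shallower (median 26.5 reads, against 78.5 reads). Of all libraries 15 stood apart, by a depth under 10 reads (3 libraries), an extreme dependence on gene length (6) or a correlation with the other replicate under 0.85 (10). They include both wt1 starvation libraries, both wt2 midlog libraries and 5 of the 7 libraries of wt2 replicate 1, so results are given with and without them. Over all libraries the coverage of PEP4 ran from 46 to 1320 reads. CPS1 had the lowest single value, with a range of 2 to 333.5 reads and a median of 35.25. LAP4 had the lowest median, 28.5 reads, with a range of 4 to 123.

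The upstream windows of 3 genes are shown because PRB1 passed the test at starvation while PEP4 and LAP4 did not, and because they hold, or lack, short elements that stress and nitrogen factors are known to bind. Each runs from 500 to 221 bases before the start codon, 5′ to 3′ on the strand of the gene, and was read from the RefSeq R64 genome: chrXVI:261152-261431 on the minus strand for PEP4, chrXI:247903-248182 on the minus strand for LAP4 and chrV:42174-42453 on the minus strand for PRB1. Capitals mark matches, on either strand, to AGGGG, the core of the stress response element, to AGGGAT, the core of the post-diauxic shift element, and to GATAAG, a site of GATA factors.
PEP4: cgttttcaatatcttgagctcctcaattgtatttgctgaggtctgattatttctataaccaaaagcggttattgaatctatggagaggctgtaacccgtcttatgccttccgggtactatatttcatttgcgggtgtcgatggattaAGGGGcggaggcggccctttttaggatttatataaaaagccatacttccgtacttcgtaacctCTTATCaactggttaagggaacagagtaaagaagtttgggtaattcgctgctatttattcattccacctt
LAP4: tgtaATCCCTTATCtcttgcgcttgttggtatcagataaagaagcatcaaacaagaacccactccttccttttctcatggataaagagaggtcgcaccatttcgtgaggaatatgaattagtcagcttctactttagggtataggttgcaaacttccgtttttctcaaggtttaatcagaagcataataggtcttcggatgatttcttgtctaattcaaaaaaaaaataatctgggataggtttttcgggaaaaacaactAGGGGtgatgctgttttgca
PRB1: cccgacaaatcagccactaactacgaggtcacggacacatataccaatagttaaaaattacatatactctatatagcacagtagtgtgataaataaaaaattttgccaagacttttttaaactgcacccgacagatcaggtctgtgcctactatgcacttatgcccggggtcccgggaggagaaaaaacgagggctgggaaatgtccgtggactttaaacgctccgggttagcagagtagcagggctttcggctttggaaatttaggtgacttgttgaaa
PEP4 had AGGGG with its first base 353 bases before the start codon, and GATAAG on the other strand at 290. LAP4 had AGGGG at 240, and AGGGAT on the other strand at 496, which shares bases with GATAAG on the other strand at 492. The windows of PRB1, PRC1 (chrXIII:861422-861701) and CPS1 (chrX:97237-97516) held none of the 3 motifs. The bases between each window and its start codon were not searched. A lack of matches thus holds for the windows only and not for the whole upstream region. Of 6000 windows of the same length, 21.1% held AGGGG, 8.87% AGGGAT and 13.1% GATAAG, so a match is common and is a description only. The PRB1 window overlaps the annotated gene YEL059C-A and the LAP4 window YKL102C.

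Levels are given as log2 of the value over that of the median tested gene of the same library, so that 0 is the median gene and 1 is a doubling; the deposited values are coverage per base, so levels of different genes can be set side by side. A difference passed the test (for genes, rose, fell or changed) when limma gave a Benjamini-Hochberg adjusted p under 0.05 over all 5567 genes and the log2 change was at least 1 in size. Nothing in the labels says that the 2 libraries of a strain and time came from separate cultures, so the p-values measure the spread between these libraries. The second scale, set by Schizosaccharomyces pombe RNA added at 10:1 by mass of total RNA, compares amounts per total RNA and not per cell.

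In growing wild-type cells the endoprotease PEP4 and the carboxypeptidase PRC1 were abundant and the other 3 were not. At midlog PEP4 was at 3.36 ± 0.94, PRC1 at 3.10 ± 0.27, PRB1 at 0.98 ± 0.42, LAP4 at 0.16 ± 1.08 and CPS1 at 0.07 ± 0.96 (log2 over the median gene, SD, n = 4 libraries of wt1 and wt2). PEP4 and PRC1 did not differ beyond their spread, nor did LAP4 and CPS1, whereas PRC1 lay above PRB1 in 16 of 16 libraries of all strains. In rank among the tested genes this put PEP4 and PRC1 at the median percentiles 92.8 and 92.7, PRB1 at 67.2, CPS1 at 53.1 and LAP4 at 46.0.

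PRB1 was the member that rose at starvation. Its level was 4.41 and 3.85 in the starved wt1 libraries and 2.92 and 3.61 in the starved wt2 libraries, against 1.60 and 0.85 in wt1 and 0.79 and 0.69 in wt2 at midlog. All 4 starved libraries lay above all 4 midlog libraries. The log2 change was 2.71 ± 0.40 (SE), or 6.55-fold, with an adjusted p of 3.51e-08, and PRB1 was higher at starvation in 16 of 16 series of the 8 strains, by 1.71 to 3.53. It was the only 1 of the 5 members to pass the test, where 44.0% of all tested genes did and 22.6% passed as higher. Leaving out the libraries in doubt gave 2.38. This sets a single starved wt2 library against wt1 at midlog, so strain and state differ together and it cannot serve as a check.

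The 4 other members did not pass in this comparison. PRC1 was at 3.61 and 3.02 in wt1 and 3.77 and 3.79 in wt2 at starvation, against 2.79 and 3.08 in wt1 and 3.44 and 3.10 in wt2 at midlog, which overlap; its log2 difference was 0.45 ± 0.25 with an adjusted p of 0.125. The difference was 0.17 ± 0.54 for PEP4, 0.42 ± 0.54 for LAP4 and -0.54 ± 0.45 for CPS1, with adjusted p-values of 0.801, 0.521 and 0.311. These estimates are loose, because the wild-type libraries of PEP4, LAP4 and CPS1 spread widely. Counted over the 16 series of all strains, PRC1 was higher at starvation in 15, PEP4 in 14, LAP4 in 12 and CPS1 in 5. When all 7 strains grown in glucose stood in for the wild types, a comparison chosen after seeing the data with 14 libraries a time, PRB1 changed by 2.66 ± 0.21 and again no other member passed, where 40.5% of genes did, with LAP4 at 0.64 ± 0.29, PRC1 at 0.48 ± 0.14, PEP4 at 0.45 ± 0.29 and CPS1 at -0.28 ± 0.24.

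**Figure D1:**
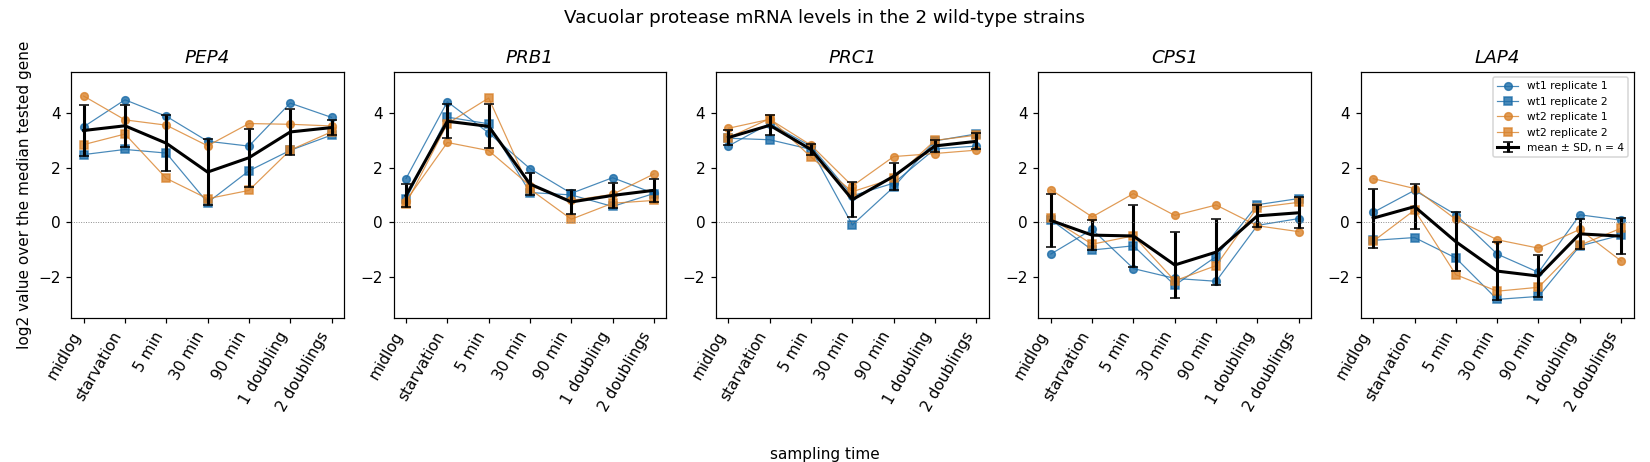
Level of each gene in the 4 wild-type series at the 7 times (y axis, log2 value over the median tested gene; x axis, sampling time). Thin lines are single series, the black line is the mean with its SD over n = 4 libraries; PRB1 stands at 3.70 at starvation, against 0.98 at midlog, while PRC1 reaches its lowest mean, 0.83, at 30 min.

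On the other scale the starved state read differently. Against the added S. pombe RNA the median gene itself was lower at starvation than at midlog by -1.96 (log2), and 76.3% of the tested genes passed the test. On that scale CPS1 fell by 2.55 (SE 0.59), PEP4 by 1.84 (SE 0.44), LAP4 by 1.60 (SE 0.48) and PRC1 by 1.57 (SE 0.51), with limma adjusted p-values of 0.000137, 0.000223, 0.00263 and 0.00516. PRB1 was at 0.70 ± 0.56 with an adjusted p of 0.245 in the wild types, and at 1.07 ± 0.30 with an adjusted p of 0.000792 over the 7 strains grown in glucose, where 75.0% of genes passed. In the wild types PRB1 was thus the member that did not pass as lower on either scale. Over the 7 strains grown in glucose LAP4, at -0.95 against the S. pombe RNA, did not pass as lower on either scale.

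After return to medium the mRNAs of the group fell within 30 min. At 5 min 0 of the 5 members passed the test against starvation with limma, where 19.6% of all genes did; PRC1 (-0.89 ± 0.25, adjusted p of 0.00513) missed the size and LAP4 (-1.28 ± 0.54, adjusted p of 0.0634) missed the p, and these 2 were the members with an unadjusted p under 0.05. PRB1 was at 3.27 and 3.60 in wt1 and 2.63 and 4.54 in wt2 at 5 min, which is about its starved level. With the series as a block LAP4 passed at 5 min (adjusted p of 0.00201). It also passed without wt2 replicate 1 (adjusted p of 0.0467), and over the 7 strains grown in glucose, where its change was -1.43 ± 0.29 and 20.4% of genes passed. PRC1 just reached the size, and passed, without wt2 replicate 1 (-1.0006, adjusted p of 0.0132) or wt1 replicate 2 (-1.0053, adjusted p of 0.0157).

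Between 5 and 30 min PRB1 and PRC1 fell, 2 of 5 members where 27.3% of all genes passed. PRB1 stood at 1.97 and 1.09 in wt1 and 1.34 and 1.21 in wt2 at 30 min, and PRC1 at 0.97 and -0.09 in wt1 and 1.33 and 1.12 in wt2. Each of these values lies below every wild-type value of the same gene at 5 min. PRB1 changed by -2.11 ± 0.40 and PRC1 by -1.83 ± 0.25, with adjusted p-values of 1.84e-05 and 3.29e-08. PEP4 (-1.05 ± 0.54), LAP4 (-1.07 ± 0.54) and CPS1 (-1.06 ± 0.45) had differences of similar size to each other and adjusted p-values of 0.113, 0.106 and 0.0533. With the series as a block, all 5 members passed, PEP4 with an adjusted p of 0.000386, LAP4 with 0.00734 and CPS1 with 0.0127. Without wt2 replicate 1 CPS1 passed as well, with an adjusted p of 0.0323. Relative to the S. pombe RNA none of the 5 passed between 5 and 30 min, where 42.8% of genes passed and the median gene was 1.08 higher at 30 min, and PRB1 and PRC1 were at -1.03 ± 0.56 and -0.75 ± 0.51.

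Taken from starvation to 30 min in one comparison, added after the data were seen, all 5 genes fell. PRC1 changed by -2.71 ± 0.25 (6.57-fold lower), LAP4 by -2.36 ± 0.54, PRB1 by -2.29 ± 0.40, PEP4 by -1.69 ± 0.54 and CPS1 by -1.09 ± 0.45, with limma adjusted p-values from 3.58e-14 for PRC1 to 0.0324 for CPS1. Of all tested genes 24.2% passed as lower and 46.2% in either direction. In the 16 series of all strains PEP4, PRB1, PRC1 and LAP4 were lower at 30 min than at starvation in 16, and CPS1 in 15. Without the libraries in doubt PEP4 was at -1.38 and CPS1 at -1.37. This sets wt1 at 30 min against a single starved wt2 library, so strain and time differ together and it cannot serve as a check. PEP4 missed the test without wt2 replicate 2 (adjusted p of 0.0564), and CPS1 without wt1 replicate 1 (0.14), wt1 replicate 2 (0.0650) or wt2 replicate 2 (0.184). On the spike-in scale the median gene was 1.38 higher at 30 min than at starvation, and PRC1 alone passed as lower in the wild types (-1.24 ± 0.51, adjusted p of 0.0323), where 5.55% of genes did. LAP4 stood there at -0.88 ± 0.48, PRB1 at -0.82 ± 0.56, PEP4 at -0.22 ± 0.44 and CPS1 at 0.38 ± 0.59, so the sign of CPS1 changed with the scale.

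**Figure D2:**
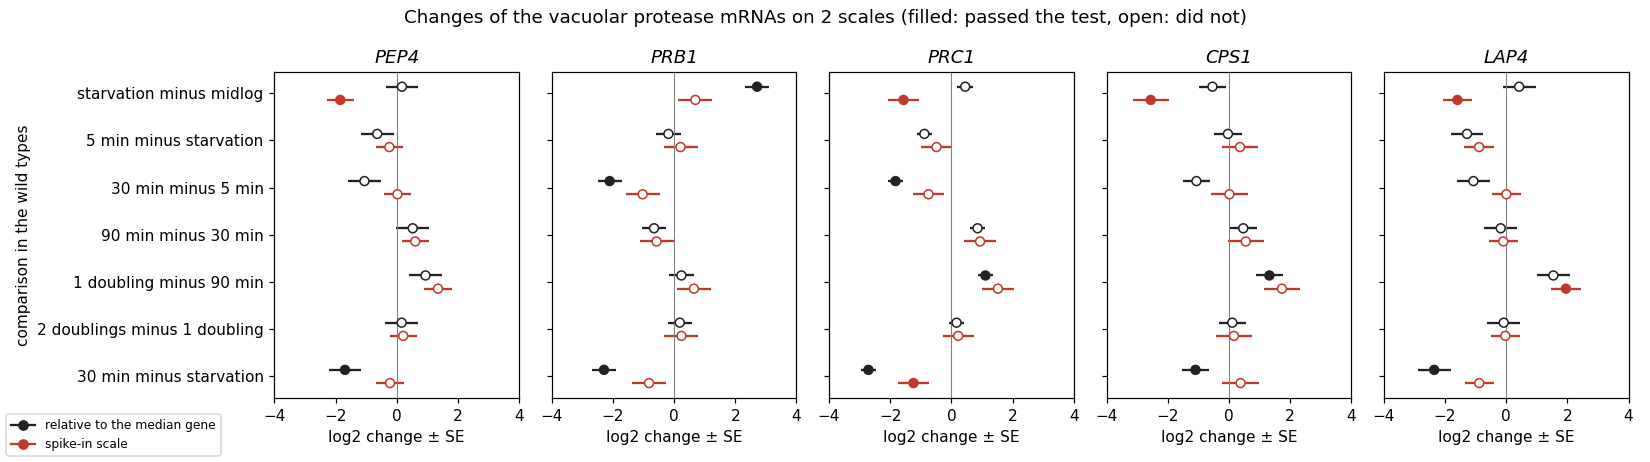
Change of each gene between times in the wild types (x axis, log2 change with its SE; y axis, the comparison), relative to the median gene in black and on the spike-in scale in red. Filled points passed the test; relative to the median gene all 5 are filled for 30 min against starvation, and on the spike-in scale only PRC1 is.

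Between 30 and 90 min 0 of 5 passed with limma, where 6.9% of genes did; PRC1 (0.85 ± 0.25, adjusted p of 0.0186) missed only the size and was the member with an unadjusted p under 0.05. It passed without wt1 replicate 1 (1.08), without wt2 replicate 2 (1.00) or without the libraries in doubt (1.05), which leaves wt1 alone at 30 min. At 90 min LAP4 was at its lowest mean, -1.96 ± 0.77, with -1.82 and -2.70 in wt1 and -0.94 and -2.37 in wt2. These LAP4 values rest on 8 to 13 reads. In 16 of 16 series PEP4, PRC1, CPS1 and LAP4 were lower at 90 min than at midlog, while PRB1 was lower in 7 and higher in 9. PRB1 thus stood near its midlog level at 90 min, with 1.06 and 1.01 in wt1 and 0.80 and 0.12 in wt2.

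From 90 min to 1 doubling PRC1 and CPS1 rose, 2 of 5 members where 6.52% of genes passed in either direction. PRC1 was at 2.69 and 2.98 in wt1 and 2.52 and 3.00 in wt2 at 1 doubling, against 1.44 and 1.29 in wt1 and 2.41 and 1.61 in wt2 at 90 min, with no overlap. Its change was 1.11 ± 0.25 with an adjusted p of 0.00237. CPS1 changed by 1.32 ± 0.45 with an adjusted p of 0.0466, while LAP4, at 1.54 ± 0.54, did not pass (0.0539). LAP4 passed with the series as a block (adjusted p of 0.000856) and without the libraries in doubt (1.90, adjusted p of 0.0132), and LAP4, PRC1 and CPS1 all passed over the 7 strains grown in glucose, at 1.19 ± 0.29, 1.13 ± 0.14 and 1.21 ± 0.24, where 6.02% of genes did. The wild-type calls rest on few libraries: PRC1 had an adjusted p of 0.0533 without wt1 replicate 2 and 0.0834 without wt2 replicate 2, and CPS1 had 0.215, 0.156 and 0.42 without wt1 replicate 1, wt1 replicate 2 and wt2 replicate 2. On the spike-in scale LAP4 alone of the members passed in the wild types, at 1.95 ± 0.48 with an adjusted p of 0.0198, where 0.934% of genes did.

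No member passed the test once growth had resumed. Between 1 and 2 doublings 0 of 5 members passed, as did 0.0% of the 5567 tested genes (25 genes had an unadjusted p under 0.05 with limma, none of them a member), and between midlog and 2 doublings 0 of 5 members passed, where 0.18% of genes did and again no member had an unadjusted p under 0.05. Most of the 16 series of all strains were nonetheless higher at 2 doublings than at 1. LAP4 and PRC1 were higher in 14, CPS1 in 13, and PEP4 and PRB1 in 12. How common such counts are among all genes was not computed. The differences at 2 doublings from midlog were 0.28 ± 0.45 for CPS1, 0.19 ± 0.40 for PRB1, 0.11 ± 0.54 for PEP4, -0.14 ± 0.25 for PRC1 and -0.66 ± 0.54 for LAP4. A difference near 1 in LAP4 or PEP4 lies within the range these errors leave and could not be shown here.

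The order of PRB1 and PRC1 differed between states of the cells, and since both genes are read in the same library it is the same on either scale. PRB1 was below PRC1 in 16 of 16 midlog libraries, above it in 11 of 16 at starvation, in 15 at 5 min and in 16 at 30 min; 90 min after release it was above in 5, and in 0 of 16 after either 1 or 2 doublings. In the wild types the median of the log2 difference PRB1 minus PRC1 was -2.32 at midlog, 0.30 at starvation, then 0.71, 0.54 and -0.93 by 5, 30 and 90 min, and -1.89 and -1.95 after 1 and 2 doublings. Over the 56 means of strain and time, PEP4 and PRC1 had a Pearson correlation of 0.91, PRC1 and LAP4 of 0.84 and PEP4 and LAP4 of 0.81, while PRB1 correlated with the other 4 at 0.08 to 0.36. These means share libraries across genes and are given as a description. PRC1 had its highest value at starvation in 15 of 16 series and its lowest at 30 min in 14; PEP4 had its highest at starvation in 12 and its lowest at 30 min in 13. PRB1 had its highest value at starvation in 10 series and at 5 min in the other 6.

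PEP4 and LAP4 differed between the processing batches. In the 6 strains whose series were split between the processing batches, PEP4 was higher in the separately processed series in 6 of 6 strains, by 0.71 to 1.40, and LAP4 in 6 of 6, by 0.36 to 1.29. Only 3.36% and 5.39% of the tested genes had as large a mean difference (1.12 for PEP4 and 0.96 for LAP4), while PRC1 (0.11), PRB1 (0.29) and CPS1 (-0.06) differed less. Batch and replicate number are the same thing in these strains, and which of the library kits was used for which library is not given in the sources used here, so batch, replicate and kit cannot be told apart. The mean change of the 2 wild types at starvation against midlog had the same sign in both batches for each of the 5 members. PRB1 changed by 2.46 within the separately processed series and 2.96 within the jointly processed ones, CPS1 by -0.05 and -1.03. For CPS1 -0.05 is too small to give a direction, while -1.03 passed (limma adjusted p of 0.00125). The wild types differed for PEP4, with means of 2.99 at midlog and 3.57 at starvation in wt1, and 3.73 and 3.49 in wt2.

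Strains lacking a SIR gene, or carrying tagged Sir3, were not told apart from the wild types in any of the 5 genes. In Sir2D, Sir3D, Sir4D, Sir3_3xT7 and Sir3_3xHA 0 of 25 differences passed with limma at midlog, 0 of 25 at starvation, 0 of 25 in the starvation response (the change from midlog to starvation) and 0 of 25 in the mean over the 7 times; of all genes, in Sir2D, Sir3D, Sir4D, Sir3_3xT7 and Sir3_3xHA in that order, 0.79%, 0.647%, 0.844%, 0.0719% and 0.0539% passed at midlog, 0.395%, 0.359%, 0.808%, 0.108% and 0.0719% at starvation, 0.108%, 0.0898%, 0.144%, 0.0898% and 0.018% in the response and 0.611%, 0.701%, 0.719%, 0.234% and 0.0898% in the mean. Of all these tests 1 had an unadjusted p under 0.05, PRC1 in the mean over times. The mean over the 7 times gives the tightest view: the 5 strains differed from the wild types by -0.38 to 0.07 in PRC1 (SE 0.17), 0.02 to 0.50 in PRB1 (SE 0.33), -0.49 to -0.08 in CPS1 (SE 0.33), -0.55 to 0.12 in LAP4 (SE 0.47) and -0.34 to 0.19 in PEP4 (SE 0.53). At starvation PRB1 ran from 3.07 to 5.19 with a median of 3.70 over the 10 libraries of these strains, a range that overlaps the wild types. With 2 libraries a strain and time, differences larger than these errors could also be missed. PRC1 at -0.38, with its SE of 0.17, did not pass, and no difference under 1 in size could. Both Sir4D series were jointly processed, while each wild type had a separately processed series.

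**Figure D3:**
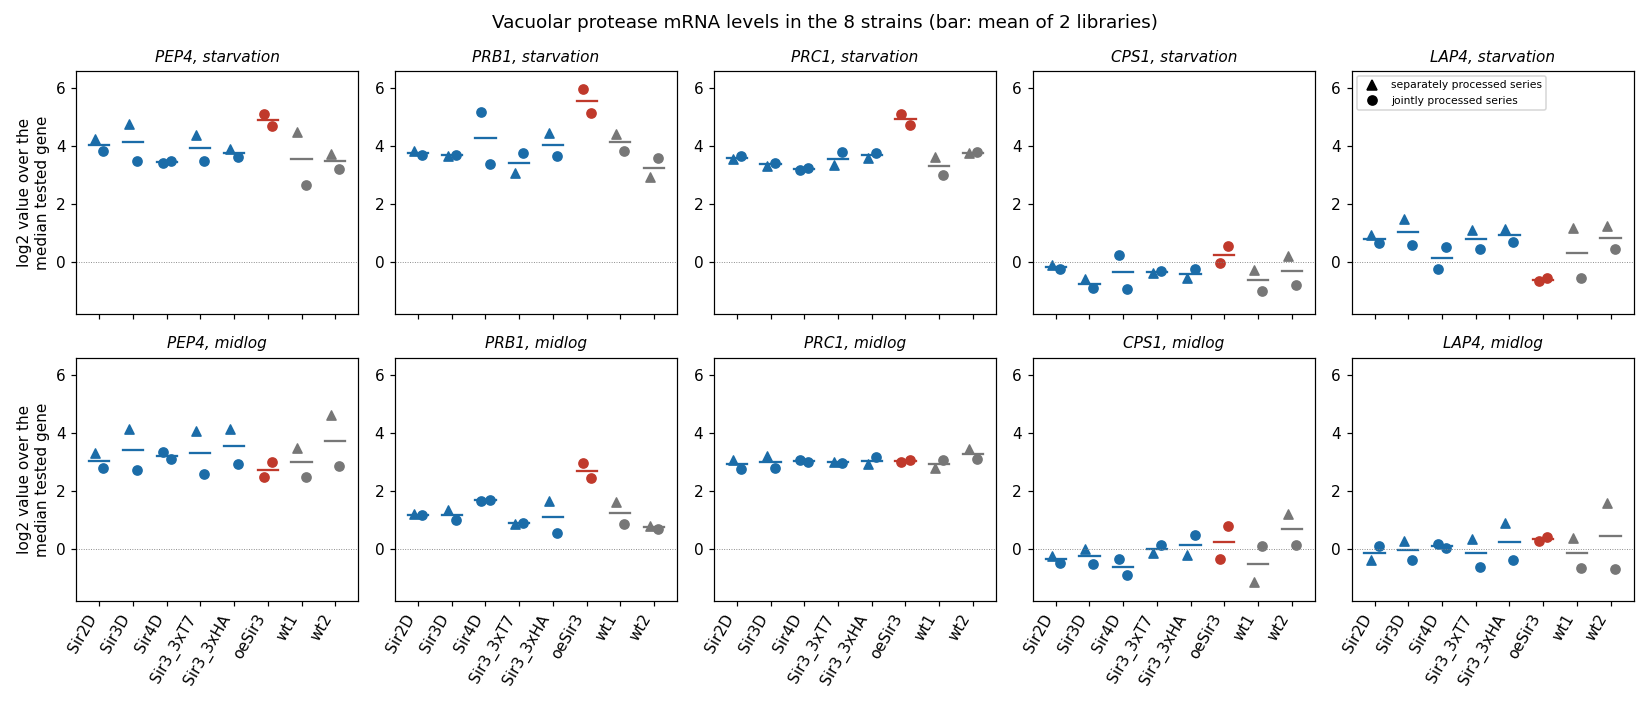
Level of each gene in the 8 strains at starvation (top) and midlog (bottom) (y axis, log2 value over the median tested gene; x axis, strain). Each point is 1 library, triangles are separately processed series, and bars are means of 2 libraries; oeSir3, in red, is the strain whose PRB1 lies above all other strains at midlog.

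oeSir3, in galactose, was the only strain with members that passed in these comparisons with the wild types. PRB1 was at 2.97 and 2.43 in oeSir3 at midlog, against 1.60 and 0.85 in wt1 and 0.79 and 0.69 in wt2. Both oeSir3 libraries lay above all 14 libraries of the strains grown in glucose, which ran from 0.55 to 1.69. The difference from the wild types was 1.72 ± 0.48 (3.29-fold, adjusted p of 0.00983), 1 of 5 members where 11.7% of genes passed. It was 2.68 ± 0.68 on the spike-in scale, with an adjusted p of 0.00472, where 8.78% of genes passed. Without wt1 replicate 2 the adjusted p was 0.0522, without oeSir3 replicate 1 it was 0.236, without the libraries in doubt it was 0.0728, and against wt1 alone 0.101.

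At starvation PRC1 and PRB1 were higher in oeSir3, 2 of 5 members where 36.4% of genes passed, a share close to that of all genes. PRC1 was at 5.12 and 4.73 in oeSir3, against 3.61 and 3.02 in wt1 and 3.77 and 3.79 in wt2, and both oeSir3 libraries lay above all 14 libraries grown in glucose. PRB1 was at 5.98 and 5.15 in oeSir3, against 4.41 and 3.85 in wt1 and 2.92 and 3.61 in wt2. The differences were 1.38 ± 0.31 for PRC1 (adjusted p of 0.000235) and 1.87 ± 0.48 for PRB1 (adjusted p of 0.00129). Neither passed on the spike-in scale: PRB1 was at 0.33 ± 0.68 (adjusted p of 0.73), and PRC1 (-0.17 ± 0.63) and PEP4 (-0.17 ± 0.54) turned in sign. PEP4 was at 5.12 and 4.70 in oeSir3 and its difference of 1.38 ± 0.66 had an adjusted p of 0.0861; with batch as a term it was 1.94 ± 0.33 and passed (adjusted p of 2.38e-06), and without wt1 replicate 1 it passed at 0.0283. Without oeSir3 replicate 1 PRB1 did not pass (adjusted p of 0.0779).

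For LAP4 the sign in oeSir3 was the opposite one. It was at -0.66 and -0.54 in starved oeSir3, against 1.17 and -0.55 in wt1 and 1.24 and 0.45 in wt2, and at 0.28 and 0.42 in oeSir3 at midlog. In starved oeSir3 it was below its own midlog level in both libraries, while it was above it in 12 of the 14 series grown in glucose. The difference from the wild types, -1.18 ± 0.66, did not pass (limma adjusted p of 0.146). With batch as a term it shrank to -0.70, as LAP4 was higher in separately processed series and both oeSir3 series were jointly processed. On the spike-in scale, without that term, the difference was -2.73 ± 0.59 at starvation and -3.89 ± 0.83 for the starvation response. The adjusted p-values were 0.000166 and 0.000182, where 38.1% and 43.9% of genes passed. For the response PRB1 passed on that scale too, at -2.35 ± 0.96 (adjusted p of 0.0412).

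The starvation response of PRC1, its change from midlog, was larger in oeSir3 than in the wild types by 1.44 ± 0.44 relative to the median gene (adjusted p of 0.00927), 1 of 5 members where 29.6% of genes passed. On the spike-in scale the sign turned, to -1.07 ± 0.89 for the response and -0.17 ± 0.63 for the level at starvation, and neither passed; on that scale the median gene of starved oeSir3 was itself -1.27 below that of the wild types. PEP4, at 2.01 ± 0.93 for the response, did not pass (adjusted p of 0.0947), but did with batch as a term (0.000466) and without wt2 replicate 2 (2.32, adjusted p of 0.0497). Without oeSir3 replicate 1 the response of PRC1 was 1.22, and without the libraries in doubt 1.03, each with a single starved library in a group, and neither passed. Averaged over the 7 times 0 of 5 members differed in oeSir3 with limma, where 9.11% of genes did; PRB1, at 1.05 ± 0.33 with an adjusted p of 0.0544, was the member with an unadjusted p under 0.05. After release, at 90 min, PRC1 was at -0.61 and 0.27 in oeSir3, below all 14 libraries grown in glucose (0.95 to 2.41), a comparison without a test. PEP4 at 2 doublings also lay below all 14, at 2.81 and 2.85 against a lowest value of 2.89. How common such a separation is among all genes, at these times or at midlog and starvation, was not computed. oeSir3 differs from the wild types in strain background, carbon source and the level of SIR3, and these cannot be told apart. Both its series were also jointly processed, while each wild type had a separately processed series.

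**Figure D4:**
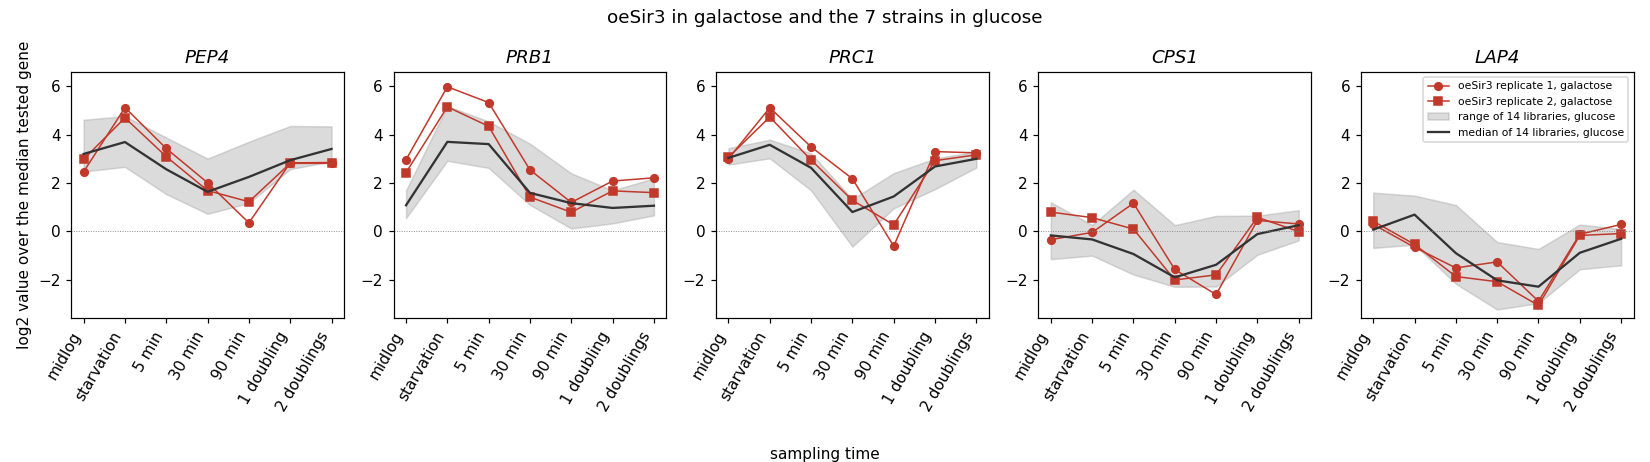
The 2 oeSir3 series in galactose (red) beside the range (grey) and median (black) of the 14 series grown in glucose (y axis, log2 value over the median tested gene; x axis, sampling time). PRC1 of oeSir3 lies above the grey range at starvation (5.12 and 4.73) and below it at 90 min (-0.61 and 0.27).

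Other genes of the vacuolar system were read from lists chosen, like the members, with earlier results of these data known. Of the 2 tested protease inhibitors PAI3 rose at starvation in the wild types, where 44.0% of all genes passed. Both fell by 30 min, where 46.2% of all genes passed and 24.2% passed as lower. The fall of PBI2 did not pass on the spike-in scale in the wild types (limma adjusted p of 0.144). PAI3, the inhibitor of proteinase A, was at 4.92 and 6.01 in starved wt1 and 7.12 and 3.32 in starved wt2, against -1.97 and -1.803 in wt1 and 2.07 and -1.75 in wt2 at midlog, a change of 6.21 ± 0.69 with an adjusted p of 1.81e-11; its change at 30 min against starvation was -5.06 ± 0.69. PBI2, the inhibitor of proteinase B, was at 4.33 ± 2.02 for starvation, which did not pass (adjusted p of 0.0606), and at -5.07 ± 2.02 for 30 min against starvation, which did (0.0266). It was nonetheless higher at starvation in each wild-type series. Over the 7 strains grown in glucose PBI2 rose at starvation (3.94 ± 1.08, limma adjusted p of 0.000947), where 40.5% of genes passed. On the spike-in scale this rise did not pass (adjusted p of 0.0522), while the fall at 30 min did (-2.75 ± 1.15, adjusted p of 0.0248). PBI2 had 0 reads in 4 of the 16 midlog libraries, and in the wild types it was at 0.63 and 5.41 in starved wt1 and 2.65 and 4.98 in starved wt2, against -5.13 and 1.54 in wt1 and -1.91 and 1.86 in wt2 at midlog. In each strain and state its separately processed library was the lower one.

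Of 8 other vacuolar hydrolases 4 rose and 1 fell at starvation (median 0.83, against 0.06 over all genes), where 44.0% of all genes passed. AMS1, the alpha-mannosidase that shares the LAP4 route, rose by 3.79 ± 0.38, ATH1, the acid trehalase, by 3.36 ± 0.35, ATG42, a carboxypeptidase related to PRC1, by 1.43 ± 0.35 and ATG15, the lipase of autophagic bodies, by 1.28 ± 0.37; APE3, aminopeptidase Y, changed by -1.05 ± 0.32. At 30 min against starvation, where 46.2% of all genes passed, AMS1, ATG42, ATH1 and ATG15 fell and none of the list rose. Their changes were -4.10, -3.45, -3.10 and -1.07 on the log2 scale. On the spike-in scale 1 of these hydrolases rose and 4 fell at starvation, where 76.3% of all genes passed, and 1 rose and 3 fell at 30 min, where 58.3% did. Of 15 tested genes of sorting to the vacuole 2 rose and 1 fell at starvation (median 0.43), a share below the 44.0% of all genes. PEP12, an endosomal syntaxin, rose by 1.58 ± 0.33 and ATG11, an adaptor of selective autophagy, by 1.30 ± 0.26, and APM3, of the AP-3 complex, changed by -1.21 ± 0.28. The receptor VPS10, which carries carboxypeptidase Y, stood at 0.03 at starvation and ATG19, the receptor of the LAP4 protein, at 0.43, and neither passed. Of 13 tested subunits of the vacuolar H+-ATPase, the pump that acidifies the compartment, 0 rose and 10 fell (median -1.67), among them VMA5 at -2.23 ± 0.22 and VMA3 at -1.89 ± 0.41; at 30 min VMA5, VPH1 and VMA3 rose by 1.38, 1.10 and 1.07 and none fell. On the spike-in scale all 13 fell at starvation and 11 rose at 30 min, and of the 15 sorting genes 12 fell at starvation and 2 rose at 30 min, beside the same 76.3% and 58.3% of all genes. Of 5 tested relatives of the members ATG42 and YSP3, a subtilisin-like relative of PRB1, rose (YSP3 by 1.18 ± 0.31), and MKC7, an aspartyl protease of the cell surface, changed by -3.34 ± 0.28.

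**Figure D5:**
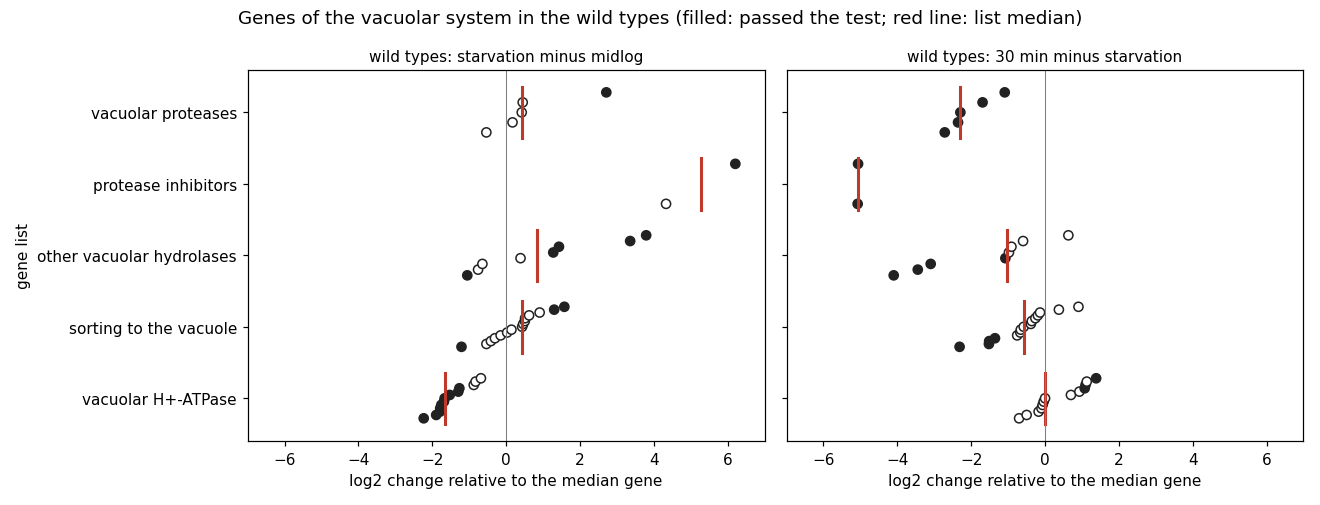
Change of each gene of 5 lists in the wild types, for starvation against midlog (left) and 30 min against starvation (right) (x axis, log2 change relative to the median gene; y axis, list). Each point is 1 gene, filled where it passed the test, and the red line is the list median; the proteases have medians of 0.42 and -2.29, the H+-ATPase subunits -1.67 and 0.0012.

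In starved oeSir3, against the wild types, 7 of the 8 other hydrolases were higher (median 1.701), led by ATG15 at 2.41 ± 0.46, ATH1 at 2.27 ± 0.42, PHO8, the vacuolar alkaline phosphatase, at 1.80 ± 0.27 and DAP2, a dipeptidyl aminopeptidase, at 1.75 ± 0.40. Of the sorting genes 5 of 15 were higher, ATG11 by 3.02 ± 0.32 and PEP12 by 2.41 ± 0.40 among them, and none was lower. The inhibitors PAI3 (-0.46 ± 0.85) and PBI2 (-0.12 ± 2.47) did not pass. Relative to the S. pombe RNA, where 38.1% of all genes passed, 0 of the 8 hydrolases and 0 of the 15 sorting genes were higher and 1 of each was lower, and PAI3 passed as lower (-2.004 ± 0.79, adjusted p of 0.0393). As 36.4% of all genes passed in this comparison, these counts describe the lists and no more.

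Across the 56 means of strain and time the genes whose pattern was most like that of a member were, by Pearson correlation, PRC1 (0.91), ARA1 (0.90) and PEX30 (0.90) for PEP4; PHM7 (0.96), HXT5 (0.95) and KNS1 (0.95) for PRB1; and HYR1 (0.96), ARA1 (0.95) and COQ4 (0.95) for PRC1. For LAP4 they were YNL134C (0.92), MRX18 (0.91) and IRC24 (0.89), and for CPS1 AIM6 (0.84), ECM29 (0.80) and THO1 (0.79). HXT5 encodes a hexose transporter, and KNS1 a LAMMER-family protein kinase. CPS1 had the loosest match of the 5.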

How the data were processed

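Polyadenylated RNA was sequenced from 8 strains at 7 times, 2 libraries each. The authors deposited 1 log2 value per gene and library, which is the median coverage of the coding sequence brought to a common scale by S. pombe RNA mixed in before library preparation, per the file headers and the labels' protocols. CASAVA 1.7.0 and, for S. pombe, the build ASM294v2 stand in the submitters' processing notes; the aligner and the S. cerevisiae build were not stated in the sources available here. The value shared by 344 to 1173 genes of a library was read as no coverage. Values were brought back to the linear scale, where all lay on steps of 0.5 reads (76.7% to 90.7% on whole reads, tolerance 0.025); as coverage they are not read counts, so no count test was used. A pseudocount of 0.03 was added, log2 was taken and each library was centred on its median tested gene; genes above 0.15 in at least 4 libraries were tested (5567, with 752 left out), so a change of a gene near that level is understated.

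Comparisons used limma 3.58.1 (R 4.3.3) with one fit over all strains and times, or over series means for the mean over times, two-sided, with Benjamini-Hochberg adjustment over all 5567 genes. The design had been written for linear values. Tables were handled with Python 3.11.15, numpy 2.4.6 and pandas 2.3.3, figures with matplotlib 3.10.9, and the fit was tested on simulated data. Within a strain, libraries of one series deviated together from midlog to 1 doubling: the correlation of deviations from group means had a median of 0.61 in wt1 (lowest 0.51) and 0.65 in wt2 (lowest 0.03, in pairs with 2 doublings). The series were therefore read as paired for wild-type comparisons up to 1 doubling, from the data and not from the labels. This pairing entered only the results given with the series as a block. All other errors, p-values and counts do not use it. In wt1 and wt2 replicate number is also the processing batch, so pairing and batch cannot be told apart.

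All 5 members are named; of the other lists, the members that passed with the largest changes, at most 4 a list, and every inhibitor; VPS10 and ATG19 were named after their values were seen. TFS1, on the inhibitor list, was not analysed here. The members and lists were chosen with earlier results of these data known. Sequences came from the RefSeq R64 genome, whose coding sequences were located by systematic name; the deposited values were not read by coordinates.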

Additional observations from a re-analysis of the deposited data

Results flagged for a closer look

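CPS1 at 30 min stood at 0.26 in wt2 replicate 1 (log2 over the median gene), while the 3 other wild-type libraries lay between -2.29 and -2.04. The gap to the nearest library was 0.902 of the whole range of the 4, above Dixon's 95% limit for 4 samples; 35 groups were tested in this way, and chance flags about 1 in 20. The CPS1 value rests on 35 reads, and the library is one of the 15 in doubt. The part of that library in the CPS1 results was not tested beyond leaving it out.

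The change of PRC1 from midlog to starvation was larger in oeSir3 than in the wild types by 1.44 on the log2 scale by the interaction term of the limma fit (adjusted p of 0.00927), and had the opposite sign, -1.07, on the spike-in scale.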

How the results depend on the processing

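Of 2680 recomputed single-gene results, 2210 kept their direction and side of the threshold, 51 passed anew and 50 no longer passed, in the same direction. In 359 the sign differed but the value passed neither as reported nor recomputed (50 of them on the spike-in scale). In 10 the sign differed and the reported or the recomputed value passed, all on the spike-in scale: at starvation against midlog PEP4 (-1.84 in the wild types, -1.14 over the 7 strains grown in glucose), PRC1 (-1.57 and -1.11) and LAP4 (-1.60, wild types), at 30 min against starvation CPS1 (0.38 and 0.31), and in oeSir3 PRC1 at starvation (-0.17) and PRC1 (-1.07) and PRB1 (-2.35) in the response. The cause was not tested. Members called are counted below, with the count as reported first. Shares of all genes are given in this report for only some of these settings. The counts therefore do not show whether the members moved more or less than all genes. For starvation against midlog (1), the spike-in scale gave 4, also over the 7 strains, and the jointly processed series 2. For 5 min against starvation (0), wt2 alone, the jointly processed series, the 7 strains, the 7 strains with the block and the 7 strains on the spike-in scale gave 1 each, and the 7 strains without the libraries in doubt 3. For 30 min against 5 min (2), the spike-in scale gave 0 in both sets of strains, the separately processed series 1 and the jointly processed ones 5. For 90 against 30 min (0), leaving out the libraries in doubt gave 1. For 1 doubling against 90 min (2), the spike-in scale, a pseudocount 3 times smaller, no filter, the zero value as deposited and wt1 alone gave 1 each, wt2 alone and the separately processed series 0, the jointly processed ones 4, and leaving out the libraries in doubt 3 (LAP4 added). For 30 min against starvation (5), the spike-in scale gave 1 (2 over the 7 strains), and wt2 alone and the separately processed series 3 each. Using wt1 alone (PEP4 lost) or a pseudocount 3 times larger (CPS1 lost) gave 4. Leaving out the libraries in doubt left a single starved library here and is not counted. For the strains at midlog (1), leaving out the libraries in doubt and wt1 alone gave 0. At starvation (2), the spike-in scale and a pseudocount 3 times larger gave 1, a smaller pseudocount and batch as a term 3 (PEP4 added), and the zero value as deposited 2, with LAP4 (-1.61) in place of PRC1 (0.94). For the response (1), the spike-in scale and batch as a term gave 2, and a larger pseudocount, the zero value as deposited and no libraries in doubt 0. For the mean over times (0), a smaller pseudocount, no libraries in doubt and batch as a term gave 1.

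With series or replicate as a block, the pairing gave 1 for 5 min against starvation and 5 for 30 against 5 min. For the strains the block gave 4 at starvation, 2 for the response and 1 for the mean. Same-numbered libraries deviated together between strains with series in both batches (correlations of 0.07 to 0.74, median 0.45). Replicate number is also the batch there, so pairing and batch cannot be told apart. Between strains with Sir4D or oeSir3 in the pair, correlations ran from -0.43 to 0.34 (median 0.0017), and pairing was not shown. Leaving out 1 series at a time gave 1 to 1 members for starvation against midlog, 0 to 2 at 5 min, 2 to 3 for 30 against 5 min, 0 to 1 for 90 against 30 min, 0 to 2 at 1 doubling, 0 to 0 at 2 doublings in both comparisons, 3 to 5 for 30 min against starvation, and 0 to 1, 1 to 3, 0 to 2 and 0 to 0 for the strains at midlog, at starvation, in the response and in the mean. Over all genes, the calls at 1 doubling fell to 52 on the spike-in scale, against 363 as reported.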
